A study of Mus musculus with 30 samples.

Results

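The genes described here are the C-type lectin receptors and the Siglecs of mouse dendritic cells. They were taken by name: every gene whose symbol starts with Clec and a digit, with Cd209 or with Siglec, other than Siglech, together with Cd207, Mrc1, Ly75, Cd22 and Cd33. That gave 49 of the 25611 gene rows of the deposited count table. The RNA came from cultures in which mouse marrow had been differentiated over 6 to 7 days by 200 ng/ml of the cytokine FLT3L, from Rubcn knockout mice (KO) or from wild-type mice (WT). In each genotype some cultures were untreated, and others received either ovalbumin (OVA), a soluble protein antigen, or Jurkat cells made apoptotic, for 30 min or for 4 h. Jurkat is an established human leukaemic T-cell line. Each of these 10 groups held 3 libraries, and all 30 shared the FLT3L culture. Rubcn encodes Rubicon, which is needed for LC3 to be attached to phagosomes that hold engulfed cargo. Nothing in the labels says whether the 3 libraries of a group came from separate mice, so the p-values measure the spread between these libraries, which may be technical.

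C-type lectin receptors are surface proteins that bind sugars, and in some cases protein or lipid ligands, through a shared fold. Some of them, such as Clec7a, Clec4e and Clec4n, signal through the kinase Syk and the adaptor Card9 and start inflammatory gene expression. Others, such as Clec4a2 and Clec12a, carry inhibitory motifs, and a further group, with Mrc1, Ly75 and the Cd209 proteins, takes up ligands for degradation and antigen presentation. Siglecs bind sialic acid on cells and are mostly inhibitory. In dendritic cells several of these receptors also mark subsets: Clec9a, which binds actin filaments exposed by dead cells, is a marker of the cross-presenting conventional type 1 cells, and Mrc1 and Cd209a are usual markers of monocyte-related and type 2 cells.

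Libraries held between 9.73 M and 51.6 M counts, and the shallowest was KO library 3 of OVA at 30 min. Of the 49 members, 39 passed the filter on low counts and were tested among 14808 genes. For Rubcn itself the KO libraries lay below the WT libraries of the same condition each time, without overlap. Its KO means were 48.0 to 74.1 CPM (counts-per-million, with library totals scaled by TMM), and its WT means were 58.9 to 98.9 CPM, so reads on the gene were still counted in KO. Markers of the expected dendritic cell subsets were present in untreated WT cells, with summed levels of 5208 ± 166 CPM for 10 type 1 markers, 1944 ± 39.7 CPM for 10 type 2 markers and 3208 ± 30.1 CPM for 10 plasmacytoid markers (mean ± SD, n = 3). A list of 12 monocyte or macrophage markers summed to 5171 ± 347 CPM there. The cultures are therefore mixtures, and in such bulk samples fewer cells of a type cannot be told apart from less RNA per cell. Libraries given Jurkat cells for 4 h stood apart in scaling: their TMM factors were 0.765 to 0.842, against 1.03 to 1.07 elsewhere. In the comparison of that time with untreated cells the median of all genes was -0.02 (WT) and -0.03 (KO) on the log2 scale with TMM, and -0.42 and -0.37 when counts were scaled to library totals instead. Changes below are relative to the TMM scaling, and members that passed the test under either scaling and turned direction under the other are named. KO library 2 of Jurkat cells at 4 h stood apart from the other 2 of its group, with a chi-square of 129 and 134 per gene, against 2.28 to 16.7 for every other pair of libraries of 1 group. Without it, 30 members in place of 32 passed in KO at 4 h of Jurkat cells against untreated, and 12 in place of 17 for KO against WT at that time.

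Untreated WT cells held a broad set of these receptors. Compared per length of exon, Cd209a, a homologue of human DC-SIGN, had the highest level, with 107 ± 4.48 CPM per kb. Clec2d followed with 69.3 ± 3.73 CPM per kb, Clec12a with 68.5 ± 1.86 CPM per kb and Clec10a with 64.3 ± 3.51 CPM per kb. Among these last 3 genes the libraries overlapped from each neighbour to the next, so their order is not set by these data. Clec4a1 with 55.8 ± 0.122 CPM per kb and Clec9a with 45.8 ± 0.227 CPM per kb came next, each apart from its neighbours. Mrc1 stood 17th with 11.8 ± 1.95 CPM per kb, Siglec1 22nd with 2.97 ± 0.423 CPM per kb, Clec4e 29th with 1.38 ± 0.0965 CPM per kb and Cd207 34th with 0.699 ± 0.0447 CPM per kb. At the other end, the 10 members that were not tested (Cd209b, Cd209g, Clec14a, Clec18a, Clec2e, Clec2h, Clec3a, Clec3b, Clec4f and Siglec15) reached at most 0.166 CPM in any group mean. Clec2h had no count in any of 30 libraries, which allows a level of up to 0.00228 CPM, counting error only. After 4 h with Jurkat cells the order had changed: Clec2d led in WT with 241 ± 5.82 CPM per kb, followed by Clec4a1 with 141 ± 2.28 and Clec4e with 133 ± 2.61 CPM per kb, while Cd209a had gone to 14th place with 9.11 ± 0.462 CPM per kb.

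**Figure D1:**
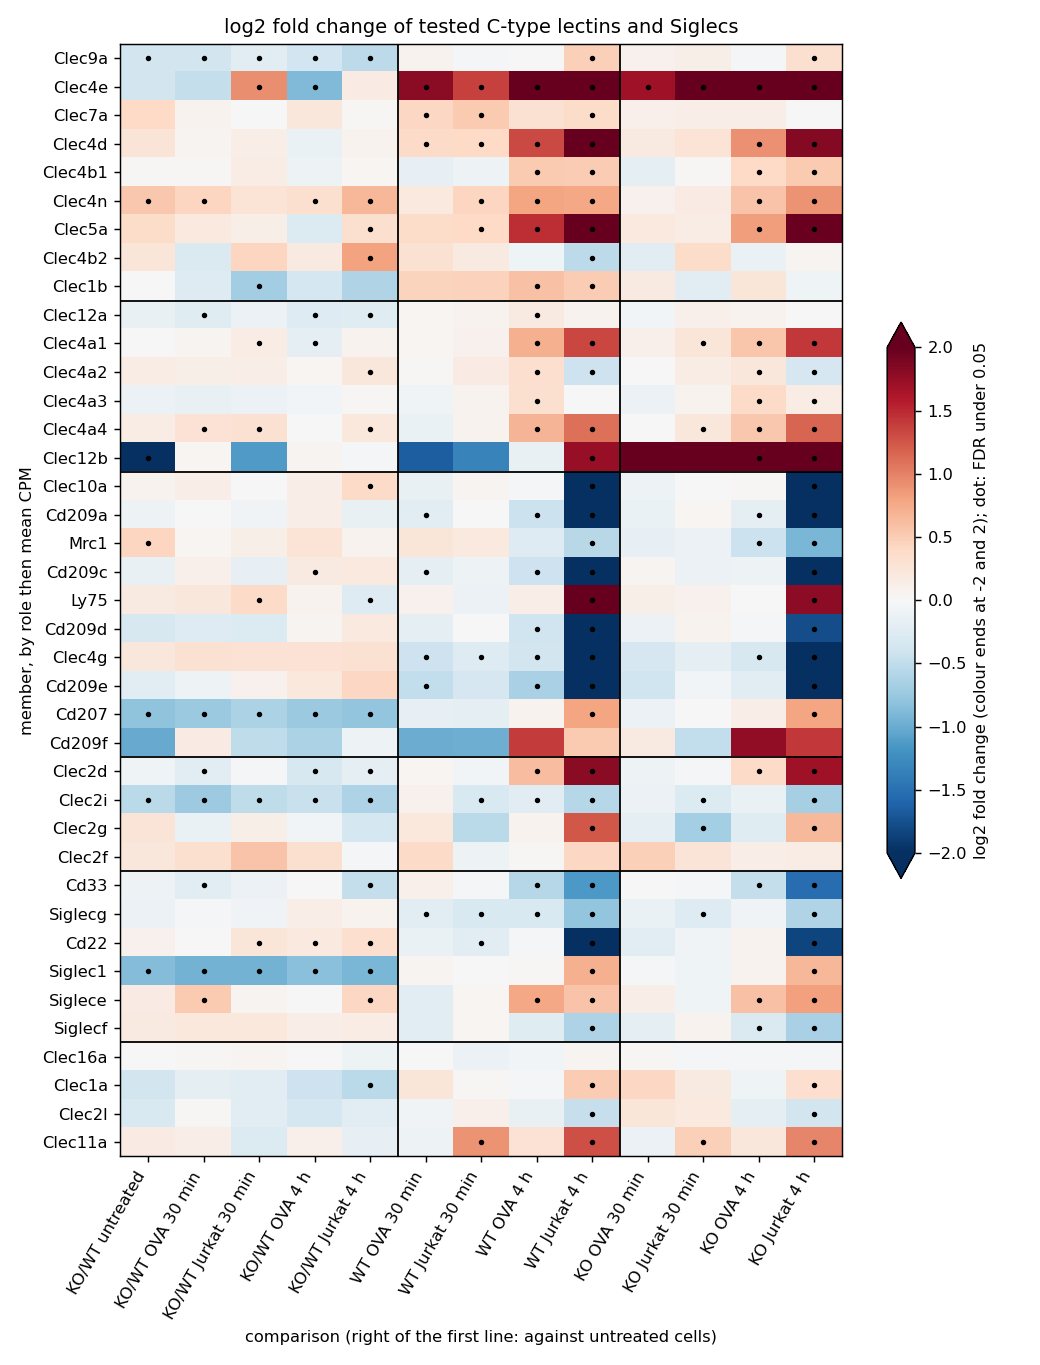
Log2 fold change of the 39 tested members (rows, by role and then by mean CPM) in KO against WT in 5 conditions and in each treatment against untreated cells within WT and within KO (columns). Colour ends at -2 and 2 and a dot marks an FDR under 0.05; the columns of Jurkat cells at 4 h are the most strongly coloured in both genotypes, and folds of Clec12b against untreated KO rest on a count of 0 there.

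Start-site regions are shown for Clec4e, the member that rose most, for 3 Cd209 genes that fell and whose windows hold the same motif letters, and for Clec2d. They were chosen after the changes and the matches had been seen. The windows are from RefSeq on GRCm38.p6 (the assembly that mm10 names) and run from 250 bases before the annotated start to 50 bases from it on. RefSeq windows were matched by gene ID for 40 of the 49 members (44 windows). In Clec4e (chr6:123289822-123290121, minus strand), which rose more than any other member, capitals mark a C/EBP match at -66 and the letters of PU.1 at -123 and -56, counted from the start site.

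Clec4e: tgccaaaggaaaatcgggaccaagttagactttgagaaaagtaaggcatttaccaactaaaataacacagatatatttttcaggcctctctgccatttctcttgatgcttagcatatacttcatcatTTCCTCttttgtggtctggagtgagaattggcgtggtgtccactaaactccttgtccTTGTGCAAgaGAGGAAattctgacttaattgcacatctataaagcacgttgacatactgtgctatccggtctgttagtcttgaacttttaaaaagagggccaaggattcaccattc

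On chromosome 8, 3 of the neighbouring genes that fell with Jurkat cells were Cd209a (chr8:3748935-3749234), Cd209d (chr8:3878450-3878749) and Cd209e (chr8:3854237-3854536), all on the minus strand. Capitals mark the same 10 letters in each, a match on the opposite strand to a composite ETS and IRF motif, at -9, -70 and -85.

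Cd209a: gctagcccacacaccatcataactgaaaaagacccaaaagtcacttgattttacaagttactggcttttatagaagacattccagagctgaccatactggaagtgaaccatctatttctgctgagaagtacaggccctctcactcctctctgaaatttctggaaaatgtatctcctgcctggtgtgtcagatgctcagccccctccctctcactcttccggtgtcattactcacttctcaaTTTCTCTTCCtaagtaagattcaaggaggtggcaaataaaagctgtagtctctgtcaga

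Cd209d: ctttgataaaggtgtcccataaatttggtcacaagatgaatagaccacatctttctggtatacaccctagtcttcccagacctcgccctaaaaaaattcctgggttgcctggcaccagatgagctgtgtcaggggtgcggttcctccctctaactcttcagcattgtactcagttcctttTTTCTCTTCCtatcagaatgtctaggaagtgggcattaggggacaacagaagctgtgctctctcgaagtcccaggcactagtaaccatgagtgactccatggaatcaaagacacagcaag

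Cd209e: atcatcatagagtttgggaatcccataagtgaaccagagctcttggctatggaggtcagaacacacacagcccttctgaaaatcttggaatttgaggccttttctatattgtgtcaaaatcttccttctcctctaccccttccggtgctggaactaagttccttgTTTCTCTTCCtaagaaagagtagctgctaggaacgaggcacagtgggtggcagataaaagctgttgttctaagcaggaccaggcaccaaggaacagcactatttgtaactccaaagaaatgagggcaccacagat

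In Clec2d (chr6:129180365-129180664, plus strand), which led the order after 4 h of Jurkat cells, capitals mark the core of an interferon-stimulated response element at -189.

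Clec2d: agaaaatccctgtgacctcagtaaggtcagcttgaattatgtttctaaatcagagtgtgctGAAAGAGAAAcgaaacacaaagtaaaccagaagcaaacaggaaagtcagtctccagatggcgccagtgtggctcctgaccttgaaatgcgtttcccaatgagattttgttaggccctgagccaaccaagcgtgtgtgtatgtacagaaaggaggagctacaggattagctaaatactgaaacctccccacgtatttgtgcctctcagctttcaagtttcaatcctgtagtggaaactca

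These matches describe letters and no more. The ETS and IRF composite was searched on both strands as GGAA, any 2 bases and GAAA, and was found in 2.72% of 32851 RefSeq windows of the same length, and in those of 6 of the 40 member genes: the 3 above, Clec2i, Clec4a1 and Clec7a. Cd209c and Clec4g, which lie in the same stretch and fell as well, had no match to any of the motifs searched in their windows. PU.1 was searched as GAGGAA, whose letters can overlap the composite, and was found in 28.3% of all windows and in 22 of the 40 member genes. C/EBP was searched as TTGCNNAA and was found in 10.8% of windows and in 7 member genes. The interferon core, GAAA, any 2 bases and GAAA, whose letters can overlap the composite too, was in 3.44% of windows and 3 member genes, AP-1 (TGANTCA) in 7.81% and 9, and an NF-kB motif in 8.46% and 2. Aligned over their whole length, the 3 Cd209 windows were 42.3% to 54.8% identical, against 44.9% to 47.3% between each of them and Clec4e.

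With OVA, the members' responses were few at 30 min and more at 4 h. Against untreated WT cells, 8 of 39 tested members passed the test at 30 min (3 higher, 5 lower), beside 10.7% of all genes (5.51% higher, 5.15% lower), and the members' median was 0.02 against 0.00 for all genes (log2). In KO, 1 member passed (higher), beside 3.77% of all genes (1.88% higher, 1.88% lower), with a median of -0.01 against 0.00. That member, Clec4e, was also among the 8 in WT. Without WT library 1 of OVA at 30 min or WT untreated library 2 the WT count was 4, and without KO library 1 of OVA at 30 min or KO untreated library 1 the KO count was 2. After 4 h of OVA, 21 members passed in WT (13 higher, 8 lower), beside 23.5% of all genes (11.9% higher, 11.7% lower), with a median of 0.02 against 0.00. In KO, 17 passed (12 higher, 5 lower), beside 11.6% (5.94% higher, 5.69% lower), with a median of 0.07 against 0.00. Of these, 14 were called in both genotypes, all 14 in the same direction, and such agreement was not counted over all genes. Here and below a call is an adjusted p (FDR, edgeR's quasi-likelihood test) under 0.05 over all genes tested, and all treatments of one genotype are set against the same 3 untreated libraries.

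With apoptotic Jurkat cells, 10 members passed in WT at 30 min (6 higher, 4 lower), beside 28.7% of all genes (14.2% higher, 14.5% lower), with a median of 0.01 as for all genes. In KO, 7 passed (4 higher, 3 lower), beside 17% of all genes (8.72% higher, 8.26% lower), with a median of 0.06 against 0.01, and 4 members were called in both genotypes, in the same direction. Without KO library 2 of that condition the KO count was 3. By 4 h nearly all tested members had moved: 34 in WT (19 higher, 15 lower), beside 79.5% of all genes (38.9% higher, 40.6% lower), and 32 in KO (18 higher, 14 lower), beside 78.5% (37.5% higher, 41% lower). Medians there were 0.41 in WT and 0.14 in KO, against -0.02 and -0.03 for all genes, and 0.01 and -0.20 when counts were scaled to library totals. The 31 members called in both genotypes all moved in the same direction. Agreement between the genotypes was not counted over all genes, here or at 30 min. Set against OVA at the same time, with the genotypes averaged, 11 members differed at 30 min (9 higher, 2 lower), beside 29.9% of all genes (15.5% higher, 14.4% lower), and 31 at 4 h (15 higher, 16 lower), beside 82.6% (39.4% higher, 43.2% lower). Without WT library 2 of OVA at 30 min the count at 30 min was 7. At 4 h of Jurkat cells the summed level of 14 NK or T cell markers was 121 to 147 CPM in WT, against 78.1 to 83.6 CPM untreated. In KO it was 104 to 122 CPM against 88.9 to 97.2 CPM. Of the 12 that were tested, 8 rose and 3 fell in WT, and 6 rose and 4 fell in KO. Of 10 stromal or endothelial markers, 7 rose and 2 fell in WT and 7 rose and 1 fell in KO, and their summed level was 1987 to 2150 CPM against 732 to 820.5 CPM untreated in WT and 1881 to 2129 CPM against 868 to 1048 CPM in KO. Of 10 plasmacytoid markers, 6 rose and 4 fell in WT and 5 rose and 4 fell in KO, with sums of 4214 to 4940 CPM against 3178 to 3238 CPM in WT and 3408 to 3788 CPM against 2766 to 2944 CPM in KO. Of 7 platelet or megakaryocyte markers, 6 rose in WT and 2 in KO and none fell, with sums of 40.4 to 48.8 CPM against 22.8 to 27.3 CPM and of 43.2 to 45.2 CPM against 26.6 to 30.2 CPM. Of 12 monocyte or macrophage markers, 8 rose and 3 fell in each genotype. Their sums overlapped the untreated ones, at 4894 to 5322 CPM against 4819 to 5513 CPM in WT. In KO the sums were 4805 to 5360 CPM against 5041 to 5910 CPM. The part that reads of the human cells or other cell types had in the values was not tested.

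**Figure D2:**
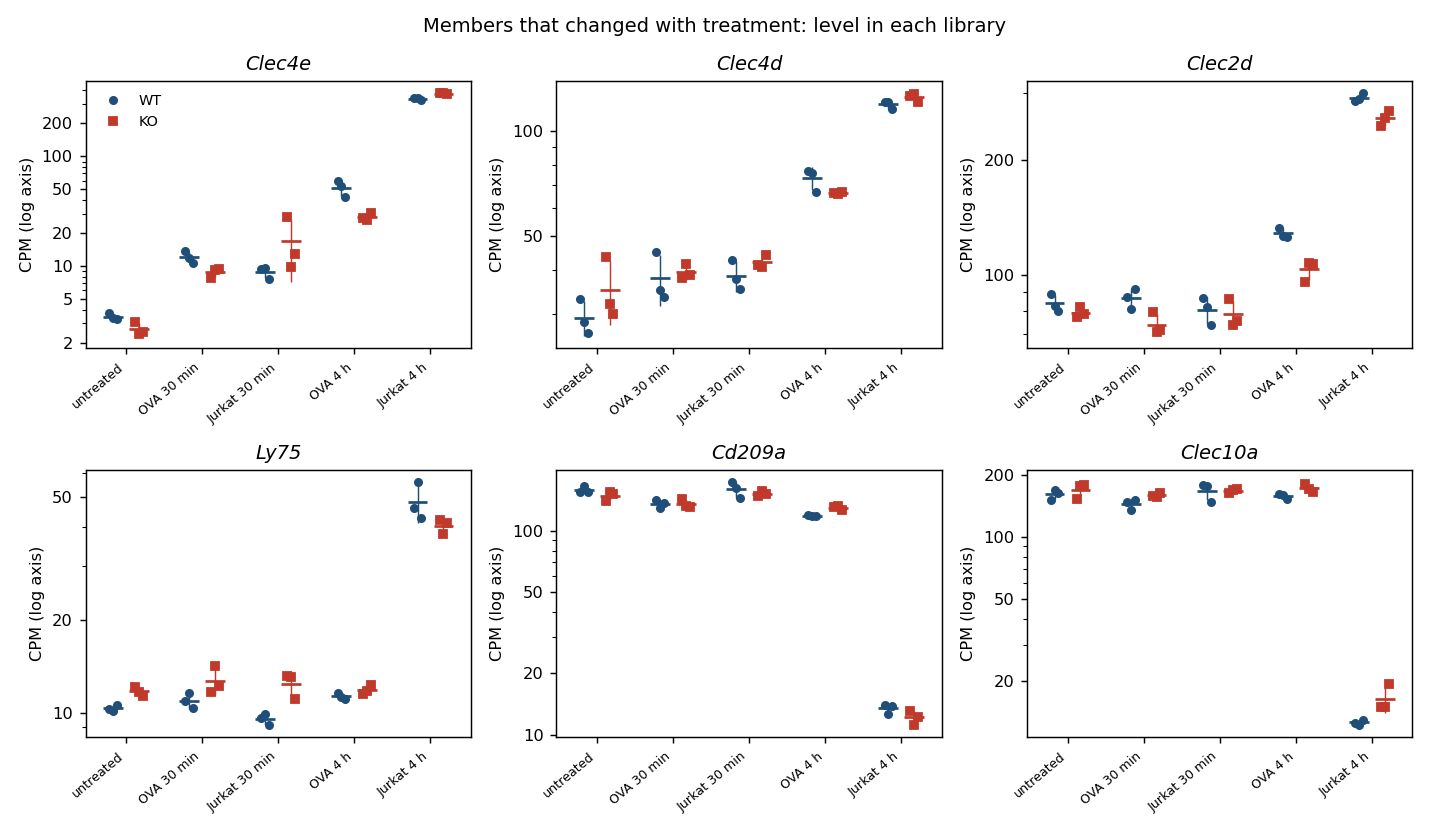
CPM on a log axis in each library of WT (circles) and KO (squares) by condition for 6 members, with the mean (horizontal line) and SD (vertical line) of 3 libraries. Clec4e climbs from at most 3.74 CPM untreated to at least 328 CPM after 4 h with Jurkat cells, while Cd209a and Clec10a drop to at most 19.3 CPM.

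Among the activating receptors, Clec4e changed the most. It encodes Mincle, which senses mycobacterial glycolipid and a nuclear protein released by dying cells and signals through the Fc receptor gamma chain. Its 3 untreated WT libraries held 3.74, 3.36 and 3.29 CPM, and those of KO 3.11, 2.40 and 2.505 CPM. At 30 min of OVA they held 13.6, 11.8 and 10.7 CPM in WT and 7.85, 9.31 and 9.46 CPM in KO, above untreated without overlap in each genotype. The log2 fold changes were 1.80 (SE 0.260, FDR 3.07e-05) in WT and 1.70 (SE 0.300, FDR 0.00084) in KO. After 4 h of OVA the WT libraries held 59.3, 54.1 and 42.6 CPM and the KO libraries 27.3, 26.6 and 30.5 CPM, which is a rise of 3.91 (SE 0.231, FDR 2.67e-13) and 3.39 (SE 0.249, FDR 6.56e-11). With Jurkat cells for 4 h the level was 340, 340 and 328 CPM in WT and 376, 377 and 371 CPM in KO. All 6 of those libraries lay far above every library of the other conditions. The WT mean was 97.0 times the untreated one (log2 fold change 6.60, SE 0.230, FDR 5.44e-21), and the KO mean 140 times (7.13, SE 0.237, FDR 2.06e-21). Against OVA at 4 h, with genotypes averaged, Clec4e was higher by 3.22 (SE 0.125, FDR 4.94e-20).

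At 30 min of Jurkat cells one library decided the size of the KO value for Clec4e. WT libraries held 9.41, 9.66 and 7.68 CPM, and KO libraries held 28.0, 9.79 and 12.98 CPM. The KO response was 2.66 (SE 0.261) and the WT response 1.36 (SE 0.271), and KO was above WT by 0.93 (SE 0.215, FDR 0.00567). Without KO library 1, KO was above WT by 0.36 with an FDR of 0.1, so that call rested on that library.

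Clec4d and Clec4n, the members next to Clec4e on chromosome 6, rose with it to a smaller extent. Clec4d, the partner receptor MCL, held 32.9, 28.3 and 26.4 CPM in untreated WT libraries, 76.7, 75.8 and 66.8 CPM at 4 h of OVA and 121, 121 and 115 CPM at 4 h of Jurkat cells. In KO it held 43.4, 31.9 and 29.9 CPM, then 66.5, 65.7 and 66.8 CPM, then 126, 127 and 121 CPM. The 3 conditions did not overlap in either genotype. Rises were 1.32 (SE 0.103, FDR 9.45e-11) in WT and 0.92 (SE 0.102, FDR 2.17e-07) in KO with OVA, and 2.03 (SE 0.104, FDR 6.51e-17) and 1.83 (SE 0.102, FDR 5.33e-16) with Jurkat cells. Clec4n, which encodes the mannan receptor Dectin-2, rose with OVA by 0.79 in WT and 0.57 in KO and with Jurkat cells by 0.77 and 0.91. Clec4b1, an activating member of the Dcir group (DCAR) that lies beyond Clec4b2 and Clec4a2 in the same stretch, rose by 0.53 and 0.40 with OVA and by 0.51 and 0.53 with Jurkat cells. Scaled to library totals, the WT rise of Clec4b1 with Jurkat cells was 0.11 and no longer passed the test.

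Clec5a, a receptor that signals through the adaptor Tyrobp (DAP12), lies apart on the same chromosome and rose to a like extent. It held 5.14, 4.66 and 4.84 CPM in untreated WT libraries, 14.9, 14.7 and 11.3 CPM at 4 h of OVA and 19.6, 20.8 and 19.0 CPM at 4 h of Jurkat cells, with no overlap. In KO it held 7.37, 6.18 and 5.43 CPM, then 11.1, 11.7 and 11.2 CPM, then 25.6, 26.9 and 21.7 CPM, again without overlap. The rise with OVA was 1.48 (SE 0.116, FDR 9.75e-11) in WT and 0.84 (SE 0.114, FDR 5.99e-06) in KO. With Jurkat cells it was 2.02 (SE 0.116) and 1.97 (SE 0.109).

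Clec7a, which encodes the beta-glucan receptor Dectin-1, differed little at 4 h of Jurkat cells. Untreated WT libraries held 73.7, 54.8 and 47.1 CPM and those of 4 h of Jurkat cells 74.3, 80.3 and 72.6 CPM, which overlap. In KO the values were 96.4, 68.8 and 65.1 CPM untreated and 83.0, 72.8 and 75.8 CPM with Jurkat cells. The WT difference of 0.37 (SE 0.136, FDR 0.0139) passed the test but turned to -0.03 when scaled to library totals. At 30 min of Jurkat cells Clec7a held 90.2, 77.9 and 82.8 CPM in WT, above untreated without overlap (0.52, SE 0.134, FDR 0.00447), and 74.6, 87.4 and 90.5 CPM in KO, where the difference did not pass. In all, 8 of the 9 activating members rose and 1 fell in WT at 4 h of Jurkat cells, counting Clec7a, Clec9a, Clec1b and Clec4b1, whose WT rises did not pass when scaled to library totals. In KO 6 rose and 0 fell. Of all genes, 38.9% rose and 40.6% fell in WT, and 37.5% rose and 41% fell in KO. The 1 that fell in WT, Clec4b2, had a mean of 0.821 CPM against 1.19 CPM untreated (log2 fold change -0.52, SE 0.233, FDR 0.0444), and the call held in 2 of 6 fits with a library left out.

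The Dcir genes of the same region went separate ways with Jurkat cells. Clec4a1 held 86.8, 87.0 and 87.1 CPM in untreated WT libraries, 149, 142 and 137 CPM at 4 h of OVA and 215, 220 and 223 CPM at 4 h of Jurkat cells. In KO the values were 86.2, 87.8 and 85.8 CPM, then 128, 123 and 128 CPM, then 227, 235 and 227 CPM. The conditions were fully apart, with rises of 0.72 (SE 0.0363, FDR 7.7e-15) and 0.55 (SE 0.0363, FDR 8.12e-12) for OVA and 1.33 (SE 0.0365, FDR 1.91e-23) and 1.41 (SE 0.0365, FDR 6.37e-24) for Jurkat cells. Clec4a4 rose likewise, by 0.68 and 0.54 with OVA and by 1.10 and 1.16 with Jurkat cells. Clec4a2, which encodes Dcir itself, an inhibitory receptor, rose with OVA by 0.34 (SE 0.0688, FDR 0.000453) in WT and 0.23 (SE 0.0684, FDR 0.0273) in KO. It fell with Jurkat cells, from 54.3, 51.7 and 47.6 CPM to 36.8, 38.5 and 39.5 CPM in WT, without overlap (-0.42, SE 0.0718, FDR 5.27e-06), and by -0.34 (SE 0.0703, FDR 7.07e-05) in KO. Clec4a3 rose with OVA by 0.31 in WT. With Jurkat cells it differed by 0.00 in WT and rose by 0.14 in KO. These values for Jurkat cells turned to -0.40 and -0.20 when scaled to library totals. Counts of Clec4a4 and Clec4a2 are uncertain to a degree, since 15.7% of the 50-base words of Clec4a4 transcripts also occur in another gene, mainly Clec4a2.

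Clec12a, an inhibitory receptor for uric acid crystals, had a narrow range of levels. It rose in WT at 4 h of OVA by 0.18 (SE 0.0570, FDR 0.0234). WT libraries held 174, 174 and 166 CPM untreated and 177, 187 and 176 CPM after 4 h of Jurkat cells, and KO libraries held 162, 154 and 145 CPM and 161, 146 and 151 CPM. Neither difference passed the test, and the WT one was -0.33 when scaled to library totals.

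**Figure D3:**
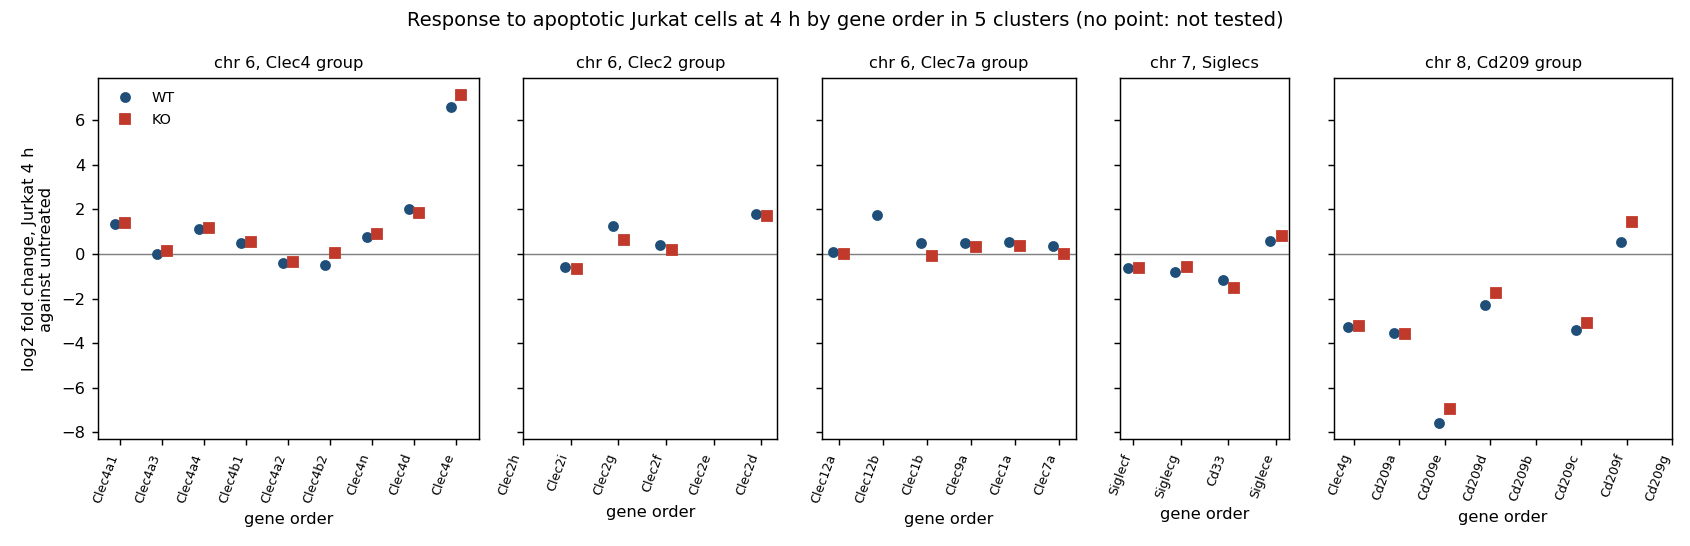
Log2 fold change at 4 h of Jurkat cells against untreated cells for members in 5 gene clusters, in gene order along each chromosome, in WT (circles) and KO (squares). Points of Clec4e lie highest and those of Cd209e lowest; untested members have no point, and Clec12b has none for KO because its untreated KO count was 0.

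Endocytic receptors made up most of the strong falls. Of 10 tested, 7 fell and 2 rose at 4 h of Jurkat cells in each genotype, with medians of -2.79 in WT and -2.43 in KO, beside 40.6% and 41% of all genes lower and 38.9% and 37.5% higher. With OVA at 4 h, 5 fell in WT and 3 in KO, beside 11.7% and 5.69% of all genes, and none rose. Cd209a held 155, 167 and 156 CPM in untreated WT libraries, 119, 118 and 118 CPM at 4 h of OVA and 14.0, 12.7 and 13.8 CPM at 4 h of Jurkat cells. In KO it held 140, 154 and 151 CPM, then 130, 133 and 126 CPM, then 13.03, 11.2 and 12.3 CPM. The groups did not overlap, and Jurkat cells left 8.49% of the untreated level in WT and 8.21% in KO. The changes were -3.56 (SE 0.0651, FDR 2.55e-27) and -3.61 (SE 0.0653, FDR 2.6e-27) with Jurkat cells, and -0.43 (SE 0.0538, FDR 7.22e-07) and -0.19 (SE 0.0537, FDR 0.0164) with OVA.

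The neighbouring Cd209 genes, paralogues of Cd209a, fell as well. Cd209c went from 51.7, 51.0 and 49.8 CPM to 4.85, 4.31 and 4.96 CPM in WT (-3.43, SE 0.0733, FDR 7.53e-26) and from 41.7, 47.8 and 48.4 CPM to 4.82, 5.32 and 6.00 CPM in KO (-3.09, SE 0.0710, FDR 4.08e-25). Cd209d went from 7.46, 8.90 and 7.25 CPM to 1.15, 1.55 and 2.16 CPM in WT (-2.29, SE 0.176, FDR 9.43e-13) and from 5.23, 7.13 and 6.43 CPM to 1.71, 1.69 and 2.09 CPM in KO (-1.77, SE 0.172, FDR 1.8e-10). None of these groups overlapped. Cd209e was almost gone: the 3 WT libraries held 2 counts in all at 4 h of Jurkat cells against 588 untreated, a 220-fold lower level with a 95% counting interval of 60.6 to 1819. In KO there were 3 counts against 530, a 138-fold lower level (46.8 to 669). Clec4g, which encodes a lectin of liver and lymph node endothelium (LSECtin), stands at the edge of the same cluster and fell by -3.29 (SE 0.144, FDR 1.3e-18) in WT and -3.22 (SE 0.133, FDR 3.58e-19) in KO. In that cluster (mm10 chromosome 8, chr8:3716071-4137707), 5 of 6 tested members fell in WT and none rose. The sixth, Cd209f, had a mean of at most 0.240 CPM. Counts of Cd209c are uncertain to a degree, since 11.6% of its 50-base words also occur in another gene, mainly the pseudogene Olfr1372-ps1.

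Clec10a, the galactose-type lectin MGL, fell in the same way although it lies on chromosome 11 (chr11:70166623-70170836). Its untreated libraries held 151, 168 and 163 CPM in WT and 153, 177 and 178 CPM in KO. After 4 h of OVA they held 161, 160 and 152 CPM and 181, 170 and 166 CPM, which overlap the untreated values. After 4 h of Jurkat cells they held 12.6, 12.3 and 13.04 CPM and 15.1, 15.0 and 19.3 CPM. The falls were -3.67 (SE 0.0840, FDR 3.67e-25) and -3.36 (SE 0.0809, FDR 1.2e-24). Its close relative Mgl2 shares 9.02% of its 50-base words. Of 10 type 2 markers, 3 rose and 5 fell at 4 h of Jurkat cells in each genotype. The summed level of that list was 1977 to 2035 CPM in WT, against 1899 to 1975 CPM untreated. In KO it was 2067 to 2204 CPM against 1957 to 2122 CPM. The part of type 2 cells in the values of Cd209a and Clec10a was not tested.

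Ly75 and Cd207 were the endocytic receptors that rose with Jurkat cells. Ly75 encodes DEC-205, an uptake receptor of mature and cross-presenting dendritic cells. It held 10.3, 10.2 and 10.6 CPM in untreated WT libraries, 11.6, 11.2 and 11.1 CPM at 4 h of OVA and 46.1, 56.0 and 42.7 CPM at 4 h of Jurkat cells. KO libraries held 12.2, 11.7 and 11.4 CPM, then 11.5, 11.8 and 12.3 CPM, then 42.1, 38.1 and 41.1 CPM. The Jurkat libraries lay above all others in both genotypes, with rises of 2.22 (SE 0.0796, FDR 1.12e-20) and 1.78 (SE 0.0784, FDR 1.67e-18), and OVA at 4 h brought no call. Cd207, the Langerhans cell lectin langerin, rose by 0.79 (SE 0.172, FDR 0.000142) in WT and 0.79 (SE 0.199, FDR 0.000727) in KO from a low level of 1.06 and 0.610 CPM. Mrc1, the mannose receptor, fell with Jurkat cells by -0.56 (SE 0.136, FDR 0.000464) in WT and -0.92 (SE 0.134, FDR 4.18e-07) in KO.

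Clec9a, the dead-cell receptor of type 1 dendritic cells, was not called with OVA at either time. Its calls at 4 h of Jurkat cells depended on the scaling, and so did its direction in KO. At 4 h of Jurkat cells WT libraries held 205, 225 and 198 CPM against 151, 150 and 151 CPM untreated, and KO libraries 154, 134 and 150 CPM against 116, 115 and 118 CPM. These differences of 0.47 (SE 0.0525, FDR 2.75e-09) and 0.32 (SE 0.0529, FDR 2.56e-06) became 0.07 and -0.01 when scaled to library totals, and neither then passed. Of 10 other type 1 markers, 8 fell and 1 rose in WT and 9 fell and 1 rose in KO, and their summed level was 3781 to 4030 CPM against 5065 to 5390 CPM untreated in WT. The part of this in the Clec9a values was not tested.

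Of the Clec2 genes, ligands for NKR-P1 receptors of natural killer cells, Clec2d and Clec2g rose and Clec2i fell at 4 h of Jurkat cells. Clec2d encodes Clr-b, the ligand of an inhibitory NKR-P1 receptor. Its libraries held 89.0, 82.9 and 80.2 CPM in untreated WT, 133, 126 and 126 CPM at 4 h of OVA and 286, 290 and 300 CPM at 4 h of Jurkat cells. In KO they held 77.4, 82.3 and 78.7 CPM, then 95.6, 107 and 107 CPM, then 245, 258 and 270 CPM. No 2 of these conditions overlapped within a genotype. The rises were 0.61 (SE 0.0626, FDR 1.87e-08) and 0.38 (SE 0.0629, FDR 0.000132) with OVA and 1.80 (SE 0.0635, FDR 7.55e-21) and 1.70 (SE 0.0634, FDR 3.21e-20) with Jurkat cells. Clec2g was low, at 1.31, 1.03 and 1.08 CPM in untreated WT and 2.41, 2.90 and 2.82 CPM at 4 h of Jurkat cells (1.24, SE 0.192, FDR 1.02e-06). In KO it went from 1.41, 1.39 and 1.28 CPM to 2.01, 2.04 and 2.32 CPM (0.64, SE 0.190, FDR 0.00311), again without overlap, and that rise was 0.30 and did not pass when scaled to library totals. Clec2i, which encodes Clr-g, fell with Jurkat cells from 24.6, 22.9 and 21.1 CPM to 14.7, 17.2 and 14.4 CPM in WT (-0.57, SE 0.0761, FDR 8.44e-08) and from 17.2, 15.3 and 14.9 CPM to 9.53, 10.2 and 10.3 CPM in KO (-0.66, SE 0.0811, FDR 2.1e-08), without overlap. A gene on the opposite strand, BC035044, overlaps Clec2i, and its reads cannot be told apart if strand was not used in counting.

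Among the Siglecs, Cd22, Cd33, Siglecg and Siglecf fell and Siglec1 and Siglece rose at 4 h of Jurkat cells in both genotypes. Cd22, an inhibitory receptor best known from B cells, held 52.2, 53.8 and 55.3 CPM in untreated WT libraries and 50.7, 52.8 and 53.4 CPM at 4 h of OVA, which overlap, and 13.5, 13.1 and 11.3 CPM at 4 h of Jurkat cells. In KO it went from 56.6, 56.2 and 58.6 CPM to 17.4, 14.8 and 15.9 CPM. The falls were -2.09 (SE 0.0716, FDR 3.84e-21) and -1.83 (SE 0.0687, FDR 3.57e-20). Of 7 tested B cell markers, 5 rose and 2 fell at that time in each genotype, and their summed level was 32.7 to 35.2 CPM in WT against 33.1 to 36.5 CPM untreated. Their part in the fall of Cd22 was not tested. Cd33, an inhibitory receptor of myeloid cells, fell with both treatments. WT libraries held 111, 108 and 111 CPM untreated, 75.6, 70.003 and 77.3 CPM at 4 h of OVA (-0.57, SE 0.0572, FDR 1.45e-08) and 46.9, 56.5 and 44.8 CPM with Jurkat cells (-1.16, SE 0.0595, FDR 6.95e-17). KO libraries held 103, 104 and 99.6 CPM, then 71.3, 74.8 and 75.1 CPM (-0.47, SE 0.0574, FDR 1.21e-06), then 37.6, 34.5 and 34.6 CPM (-1.52, SE 0.0607, FDR 1.59e-19). In both genotypes the 3 conditions stepped down without overlap. Siglecg fell by -0.80 in WT and -0.60 in KO, and Siglecf, an eosinophil marker, by -0.61 and -0.64. Siglece, an inhibitory receptor of myeloid cells, rose with OVA by 0.77 and 0.59 and with Jurkat cells by 0.56 and 0.81. Its WT rise with Jurkat cells was 0.16 and no longer passed when scaled to library totals.

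Of the members outside these families, Clec11a, a secreted growth factor of bone and blood-forming cells, rose with Jurkat cells at 30 min by 0.90 (SE 0.163, FDR 0.000116) in WT and 0.48 (SE 0.163, FDR 0.0423) in KO and at 4 h by 1.29 and 0.98. Its group means did not exceed 4.75 CPM. Clec16a, an intracellular protein of endosomal sorting and mitophagy and no surface lectin, was called in no comparison, with group means between 34.5 and 38.5 CPM. Scaled to library totals, it was lower at 4 h of Jurkat cells by -0.35 in WT and -0.38 in KO.

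The response of both genotypes to a treatment was compared directly as an interaction. For OVA at 30 min, Jurkat cells at 30 min and OVA at 4 h, 0 members passed in edgeR's quasi-likelihood test, beside 0%, 0.00675% and 0.0405% of all genes. At an unadjusted p under 0.05 there were 4, 4 and 8 members, and DESeq2 called 0, 0 and 1. For Jurkat cells at 4 h, 3 members passed (1 higher, 2 lower in KO), beside 4.26% of all genes (1.72% higher, 2.55% lower). Without KO or WT library 2 of that condition, KO untreated library 1 or WT untreated library 2, 1 member passed. Cd33 fell further in KO than in WT by 0.37 on the log2 scale (SE 0.0844, FDR 0.0122), and Ly75 rose less in KO, with a difference of -0.44 (SE 0.111, FDR 0.0239). The Ly75 interaction kept its call in 8 of 12 fits with a library left out, and without WT library 2 of that condition it was -0.32 with an FDR of 0.0742. The third, Clec12b, had 0 counts in untreated KO and 35 after 4 h of Jurkat cells, against 13 and 33 counts in WT. The KO rise had a lower 95% counting limit of 11.6-fold. It was 15.0-fold when 3 counts are taken as the floor over the untreated group. The fitted interaction of Clec12b depends on the 0 counts in untreated KO.

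**Figure D4:**
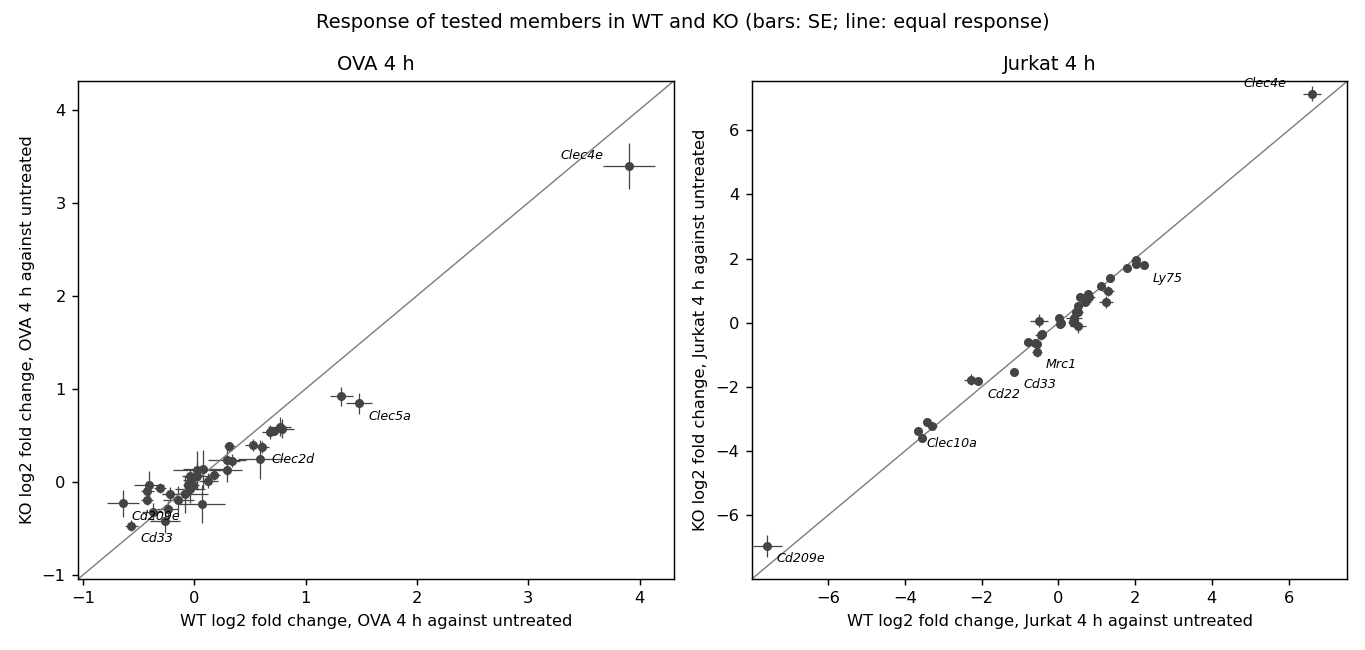
Log2 fold change against untreated cells at 4 h in WT (x axis) and KO (y axis) for OVA (left) and Jurkat cells (right), 1 point per tested member with SE bars and the line of equal response; Clec12b and Cd209f are left out for their low counts. Clec4e lies at 3.91 and 3.39 with OVA and at 6.60 and 7.13 with Jurkat cells, and Cd33 and Ly75 lie below the line in the right panel.

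The comparison of KO with WT, the question of the study's design, was made in each of 5 conditions with separate libraries. Of 39 tested members, 7 differed in untreated cells (2 higher, 5 lower in KO), beside 9.97% of all genes (6% higher, 3.97% lower). The 5 lower include Clec12b, with 0 counts in KO against 13 in WT. The 2 higher include Mrc1, whose call was lost without KO untreated library 1. With OVA at 30 min 10 differed (3 higher, 7 lower), beside 12.4% (6.25% and 6.13%), and with Jurkat cells at 30 min 10 (5 higher, 5 lower), beside 9.25% (5.58% and 3.67%). With OVA at 4 h 11 differed (3 higher, 8 lower), beside 12.6% (6.22% and 6.35%), and with Jurkat cells at 4 h 17 (8 higher, 9 lower), beside 22.9% (9.37% and 13.5%). Without KO library 2 of OVA at 30 min the count there was 3, and without WT library 2 of OVA at 4 h it was 7. The members' medians lay between -0.01 and 0.03 on the log2 scale, and those of all genes between -0.01 and 0.00. In all, 23 members were called in at least 1 condition and 16 in none. The members Siglec1, Clec9a, Clec2i and Cd207, 4 in all, were lower in KO in all 5 conditions, and 0 were higher in all 5. A further 5 were called in the same direction in at least 3 conditions: Clec12a and Clec2d lower, and Clec4n, Cd22 and Clec4a4 higher. Clec4e, Clec4a1 and Ly75 were called in opposite directions in different conditions. Repeated calls were not counted over all genes, so no share stands beside these counts over conditions.

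**Figure D5:**
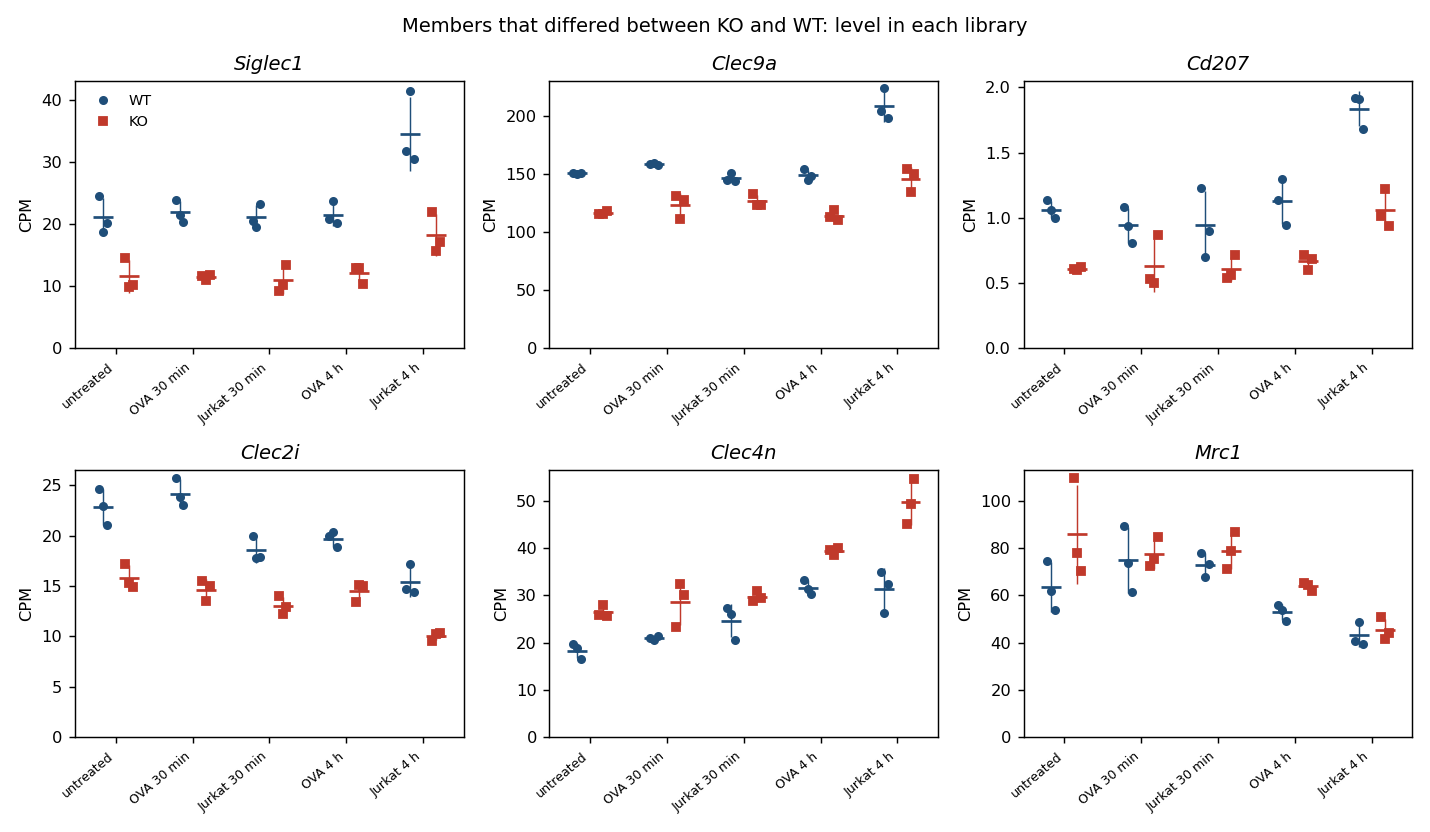
CPM in each library of WT (circles) and KO (squares) by condition for 6 members, with the mean (horizontal line) and SD (vertical line) of 3 libraries and axes from 0. KO libraries of Siglec1, Clec9a and Clec2i lie below the WT libraries in every condition, those of Clec4n lie above them, and Mrc1 overlaps in all but OVA at 4 h.

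Siglec1 showed the largest and steadiest of these differences. It encodes CD169, a Siglec of macrophages that binds sialylated cells and vesicles and is induced by type I interferon. Untreated WT libraries held 24.6, 18.8 and 20.2 CPM and KO libraries 14.6, 9.97 and 10.2 CPM. At 30 min they held 23.9, 21.5 and 20.4 CPM against 11.7, 11.02 and 11.8 CPM with OVA, and 20.5, 19.5 and 23.3 CPM against 9.23, 10.2 and 13.4 CPM with Jurkat cells. At 4 h they held 20.9, 23.7 and 20.1 CPM against 12.9, 12.9 and 10.4 CPM with OVA, and 31.9, 41.4 and 30.5 CPM against 22.1, 15.7 and 17.1 CPM with Jurkat cells. KO was below WT without overlap in all 5 conditions. The log2 differences were -0.87 (SE 0.146, FDR 0.000144) untreated, -0.94 (SE 0.156, FDR 0.000141) and -0.95 (SE 0.147, FDR 8.67e-05) at 30 min of OVA and Jurkat cells, and -0.83 (SE 0.146, FDR 0.000187) and -0.92 (SE 0.141, FDR 2.9e-05) at 4 h. Siglec1 rose at 4 h of Jurkat cells in both genotypes, by 0.70 (SE 0.137, FDR 3.3e-05) in WT and 0.66 (SE 0.1501, FDR 0.000246) in KO. Monocyte or macrophage markers gave 1 higher and 1 lower of 12 in untreated KO, with summed levels of 5041 to 5910 CPM in KO and 4819 to 5513 CPM in WT, and none higher and 3 lower at 30 min of OVA, none and 2 at 30 min of Jurkat cells, none and 3 at 4 h of OVA and 1 and 3 at 4 h of Jurkat cells. Their medians were 0.04 untreated and -0.09 to -0.14 in the other conditions. Of all genes, 5.58% to 9.37% were higher and 3.67% to 13.5% lower over the 5 conditions. The part of these markers in the Siglec1 values was not tested.

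Clec9a was lower in KO throughout, and by less. Untreated WT libraries held 151, 150 and 151 CPM and KO libraries 116, 115 and 118 CPM, which is 77.3% of the WT mean. With OVA they held 159, 160 and 158 CPM against 131, 112 and 128 CPM at 30 min and 154, 145 and 148 CPM against 113, 119 and 110 CPM at 4 h. With Jurkat cells they held 145, 151 and 145 CPM against 133, 124 and 123 CPM at 30 min, and at 4 h the values given above. The groups were apart in every condition. The differences were -0.37 (SE 0.0526, FDR 1.69e-05) untreated, -0.37 (SE 0.0535, FDR 3.2e-05) and -0.39 (SE 0.0527, FDR 5.49e-06) with OVA, and -0.21 (SE 0.0526, FDR 0.00914) and -0.52 (SE 0.0527, FDR 9.34e-08) with Jurkat cells. The call at 30 min of Jurkat cells was lost without KO library 3 (-0.20, FDR 0.0529) or WT library 2 (-0.19, FDR 0.06).

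Other markers of type 1 dendritic cells were counted beside Clec9a. Of 10 such markers, 2 were higher and 0 lower in untreated KO, 2 and 0 at 30 min of OVA, 4 and 0 at 30 min of Jurkat cells, 3 and 1 at 4 h of OVA and 3 and 3 at 4 h of Jurkat cells, by edgeR's quasi-likelihood test. At an unadjusted p under 0.05, 3 of the 10 differed in untreated cells. Their summed level was 5192 to 5340 CPM in untreated KO and 5065 to 5390 CPM in WT. Xcr1, the chemokine receptor that defines the subset, differed by -0.07 in untreated cells and was called lower in 1 of the 5 conditions, OVA at 4 h (-0.19). Of 10 plasmacytoid markers, 5 were lower and 1 higher in untreated KO, with summed levels of 2766 to 2944 CPM against 3178 to 3238 CPM in WT. All 7 basophil or mast cell markers were higher in KO in every condition, with summed levels of 57.4 to 89.5 CPM against 22.3 to 28.6 CPM in untreated cells. Of 10 stromal or endothelial markers, 4 were higher and 2 lower in untreated KO, with a median of 0.47 and summed levels of 868 to 1048 CPM against 732 to 820.5 CPM, and 5 to 8 of the 10 were called in each condition. Of all genes, 6% were higher and 3.97% lower in untreated KO, and 9.25% to 22.9% were called over the 5 conditions. The part of these cell types in the members' values was not tested.

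Clec2i and Cd207 completed the set of steadily lower genes. Clec2i held 24.6, 22.9 and 21.1 CPM in untreated WT libraries and 17.2, 15.3 and 14.9 CPM in KO, and the groups were apart in all 5 conditions. Its differences were -0.53 (SE 0.0735, FDR 1.08e-05) untreated, -0.73 (SE 0.0782, FDR 2.47e-07) at 30 min of OVA, -0.51 (SE 0.0761, FDR 5.87e-05) at 30 min of Jurkat cells, -0.45 (SE 0.0753, FDR 0.000103) at 4 h of OVA and -0.62 (SE 0.0837, FDR 5.85e-06) at 4 h of Jurkat cells. Cd207 was low, at 1.14, 1.06 and 1.0001 CPM in untreated WT and 0.609, 0.601 and 0.621 CPM in KO, without overlap (-0.80, SE 0.193, FDR 0.00659). The difference was -0.74 (SE 0.190, FDR 0.00849) at 4 h of OVA and -0.80 (SE 0.178, FDR 0.00162) at 4 h of Jurkat cells, again without overlap. At 30 min the libraries overlapped, with -0.75 (FDR 0.0216) for OVA and -0.63 (FDR 0.0417) for Jurkat cells, and each of these 2 calls held in 2 of 6 fits with a library left out. Without WT library 1 of Jurkat cells at 30 min the Cd207 difference was -0.41 (FDR 0.3). Without WT library 2 of OVA at 4 h it was -0.63 (FDR 0.0592).

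Clec12a and Clec2d were slightly lower in KO in 3 of the 5 conditions each. For Clec12a the differences that passed were -0.24 (SE 0.0581, FDR 0.00716) at 30 min of OVA, -0.26 (SE 0.0571, FDR 0.00217) at 4 h of OVA and -0.24 (SE 0.0576, FDR 0.00332) at 4 h of Jurkat cells, all without overlap of the libraries. The untreated difference was -0.16 (FDR 0.0873) and did not pass. The first of these calls was lost without KO library 2 (-0.20, FDR 0.0841). For Clec2d they were -0.22 (FDR 0.0214) at 30 min of OVA, -0.32 (SE 0.0622, FDR 0.000685) at 4 h of OVA and -0.18 (FDR 0.0318) at 4 h of Jurkat cells, of which the first and the last held in 2 of 6 fits with a library left out. Scaled to library totals, the last was -0.10 (FDR 0.243).

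Clec4n was the clearest of the members that were higher in KO. Untreated WT libraries held 19.7, 18.8 and 16.5 CPM and KO libraries 25.8, 28.0 and 25.7 CPM. At 30 min they held 21.02, 20.6 and 21.4 CPM against 23.2, 32.4 and 30.0 CPM with OVA, and 27.3, 26.0 and 20.6 CPM against 28.7, 31.0 and 29.5 CPM with Jurkat cells. At 4 h they held 33.3, 31.4 and 30.2 CPM against 39.6, 38.6 and 39.98 CPM with OVA, and 35.0, 26.3 and 32.4 CPM against 45.0, 49.3 and 54.7 CPM with Jurkat cells. KO was above WT without overlap each time. The differences were 0.53 (SE 0.105, FDR 0.000912) untreated, 0.42 (SE 0.108, FDR 0.00929) and 0.32 (SE 0.0986, FDR 0.0312) with OVA at 30 min and 4 h, and 0.67 (SE 0.101, FDR 2.34e-05) with Jurkat cells at 4 h, while 0.27 (FDR 0.0932) at 30 min of Jurkat cells did not pass. Without KO library 2 of OVA at 30 min that difference was 0.27 (FDR 0.208), and the call at 4 h of OVA held in 1 of 6 fits with a library left out.

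Cd22 and Clec4a4 were higher in KO by smaller amounts. Cd22 differed by 0.24 (SE 0.0619, FDR 0.014) at 30 min of Jurkat cells, 0.19 (SE 0.0614, FDR 0.0386) at 4 h of OVA and 0.34 (SE 0.0788, FDR 0.00212) at 4 h of Jurkat cells, without overlap in each case. The middle one held in 1 of 6 fits with a library left out and the first in 4 of 6. Of 7 tested B cell markers, 3 were higher and 0 lower in untreated KO, where Cd22 was not called. Their summed levels there were 39.3 to 40.3 CPM against 33.1 to 36.5 CPM in WT. With OVA at 30 min, where Cd22 was not called either, 4 were higher, and with Jurkat cells at 30 min 3. With OVA at 4 h 4 were higher and with Jurkat cells at 4 h 2, and 0 were lower each time. Of all genes, 5.58% to 9.37% were higher in these 5 conditions. The part of these markers in the Cd22 values was not tested. Clec4a4 differed by 0.30 (FDR 0.0173) at 30 min of OVA, where libraries overlapped, 0.31 (FDR 0.0101) at 30 min of Jurkat cells and 0.21 (FDR 0.0285) at 4 h of Jurkat cells. These calls held in 2, 5 and 2 of 6 fits with a library left out. The median of the 7 B cell markers was 0.35 in untreated KO.

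Mrc1, the other marker gene of the set, did not keep its difference. Untreated WT libraries held 74.8, 61.97 and 54.0 CPM and KO libraries 110, 78.0 and 70.1 CPM, which overlap. The difference of 0.44 (SE 0.130, FDR 0.0303) passed the test, but without KO library 1 it was 0.22 (FDR 0.349). In the other conditions Mrc1 differed by 0.03 to 0.27 and was not called. Mir511 lies within Mrc1 on the same strand.

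For 3 members the calls in KO against WT went in opposite directions, each condition being tested by itself. In the interaction tests 0 members passed for Jurkat cells at 30 min and for OVA at 4 h. At 4 h of Jurkat cells the interaction passed for Ly75 and not for Clec4e or Clec4a1. Clec4e was lower in KO at 4 h of OVA by 0.89 on the log2 scale (SE 0.177, FDR 0.0008), where the libraries given above were apart, and higher at 30 min of Jurkat cells only with KO library 1. Clec4a1 was higher by 0.15 (SE 0.0363, FDR 0.00824) at 30 min of Jurkat cells and lower at 4 h of OVA, by -0.17 (SE 0.0359, FDR 0.00102). Ly75 was higher by 0.39 (SE 0.0856, FDR 0.00396) at 30 min of Jurkat cells, with 13.2, 13.1 and 11.1 CPM in KO against 9.61, 9.89 and 9.15 CPM in WT. At 4 h of Jurkat cells Ly75 was lower by -0.26 (SE 0.0720, FDR 0.0103), and without WT library 2 that difference was -0.14 (FDR 0.168), or -0.22 (FDR 0.0685) without KO library 2. Scaled to library totals it was -0.17 (FDR 0.0566).

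At 4 h of Jurkat cells several further genes were called in KO against WT. There 17 members differed, more than in the other 4 conditions, and 22.9% of all genes did, against 9.25% to 12.6% elsewhere. Without KO library 2 of that condition fewer members were called, as given above. Cd33 was lower by -0.47 (SE 0.0626, FDR 4.31e-06) in the libraries given above, without overlap, and it had also been lower at 30 min of OVA (-0.22, FDR 0.0131). Clec1a, a receptor of endothelial and dendritic cells, was lower by -0.53 (SE 0.138, FDR 0.00535). Clec10a was higher by 0.38 (SE 0.0918, FDR 0.00304), Siglece by 0.42 (SE 0.104, FDR 0.00384) and Clec5a by 0.32 (SE 0.1005, FDR 0.0197). Siglece had also been higher at 30 min of OVA (0.52, FDR 0.00308), where the libraries overlapped. The Clec5a call held in 2 of 6 fits with a library left out.

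The proteins that carry the signals of these receptors were described from a list of 25 genes, all tested. In untreated KO 1 was higher and 5 lower, and at 4 h of Jurkat cells 4 were higher and 10 lower, with list medians of -0.05 and -0.10 against -0.01 for all genes. The shares of all genes were 6% higher and 3.97% lower untreated and 9.37% and 13.5% at 4 h of Jurkat cells. Prkcd, the kinase between Syk and Card9, was lower by -0.21 (FDR 0.00048) in untreated KO, and Card9 by -0.21 (FDR 0.00667). Fcer1g, the gamma chain used by Clec4e and Clec4n, was lower by -0.17 (FDR 0.0166) in untreated KO and by -0.28 (FDR 5.68e-05) at 4 h of Jurkat cells. Ptpn6, the phosphatase SHP-1 that inhibitory receptors recruit, was lower by -0.27 (FDR 5.13e-05) at 4 h of Jurkat cells. Against untreated WT cells, 15 of the 25 rose and 9 fell at 4 h of Jurkat cells, beside 38.9% and 40.6% of all genes. Among them the kinase Src (2.98) rose and Card9 (-2.32) and the transcription factor Nfatc2 (-3.01) fell. With OVA at 4 h, 7 rose and 5 fell, beside 11.9% and 11.7%, with Src at 1.43.

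Genes that make and transfer sialic acid, the ligand of Siglecs, were described from a list of 21, of which 20 were tested. In KO, St6gal1, which builds the alpha-2,6-linked sialic acid that Cd22 binds, was higher in all 5 conditions, by 0.45 untreated, 0.33 and 0.42 at 30 min of OVA and Jurkat cells and 0.52 and 0.70 at 4 h. St3gal6, which builds an alpha-2,3 linkage, was lower in all 5, by -0.38, -0.51, -0.34, -0.52 and -0.58 in the same order. In untreated KO these were the 2 genes of the list that were called, with a list median of -0.02 against -0.01 for all genes, beside 9.97% of all genes called. At 4 h of Jurkat cells 7 of 20 rose and 12 fell in WT, with a median of -0.41, and 8 rose and 11 fell in KO, with a median of -0.39, beside 79.5% and 78.5% of all genes called. St6gal1 fell by -2.36 in WT and -2.10 in KO, and Gne, the first enzyme of sialic acid synthesis, by -1.61 and -1.54, while St3gal1 rose by 1.67 in each.

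The members also share position. A stretch of chromosome 6 from Clec4a1 to Clec4e (chr6:122921848-123289871, mm10) holds 9 members, and in WT 6 of them rose and 2 fell at 4 h of Jurkat cells. Of all genes, 38.9% rose and 40.6% fell there, and the counts of each stretch are read beside those shares. A further 6 lie from Clec12a to Clec7a (chr6:129350244-129472779), of which 5 rose and 0 fell. Clec9a and Clec7a of that stretch are the ones whose rise was lost or turned under scaling to library totals, together with Clec1a (0.11) and Clec1b (0.11). Between them, 6 Clec2 genes (chr6:128662385-129186535) gave 2 rises and 1 fall among 4 tested. On chromosome 7, Siglecf, Siglecg, Cd33 and Siglece (chr7:43351341-43660161) gave 1 rise and 3 falls. The Cd209 stretch of chromosome 8 held falls and no rise among its called members. In untreated KO against WT, no more than 2 members of any of these 5 clusters were called. Of all genes, 9.97% were called there (6% higher, 3.97% lower). Clec12b, 1 of the 2 called from Clec12a to Clec7a, rests on 0 counts in KO against 13 in WT.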

How the data were processed

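RNA was sequenced from 30 libraries in 10 groups of 3. The values are read counts per gene as deposited by the authors, and per the submitters' processing notes STAR 2.5, Subread and featureCounts 1.5.0-p1, DESeq2 and the build mm10 were used, with roles and strand setting not given in the sources used here. Whole-number counts were analysed with R 4.3.3, edgeR 4.0.16 and limma 3.58.1: TMM scaling, the edgeR filter on low counts by group (14808 of 25611 rows kept, holding 99.99% of counts), and 1 quasi-likelihood fit of all 30 libraries with no covariate, in which 19 contrasts were tested with Benjamini-Hochberg adjustment (FDR under 0.05) over all genes kept. Log2 fold changes and their SE come from that fit, CPM from the same scaling, and lengths from GENCODE M21 exons. DESeq2 1.42.0, other scalings, other filters, fits of the compared groups, replicate blocks and the omission of each library were alternatives. The scripts were tested on simulated data with known changes. Depth was 9.73 M to 51.6 M counts (median 44.9 M), and the counting intervals (95%) and the floor of 3 counts cover counting error only. Members were chosen by symbol, and the members, roles and lists were chosen with earlier results of these data known. Every member may be named, each library is given for the members the results turn on, and the other named genes of lists are examples. Promoters and their sequences are from RefSeq (GRCm38.p6), with no protein sequences used here.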

Additional observations from a re-analysis of the deposited data

Results flagged for a closer look

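For 3 members the response to 4 h of Jurkat cells differed between KO and WT in the test of that difference (edgeR's quasi-likelihood test, 3 libraries a group). The difference was -0.3675 for Cd33 (SE 0.0844, FDR 0.0122), whose fall was larger in KO, and the call held in all 12 fits with a library left out. For Ly75 it was -0.4352 (SE 0.111, FDR 0.0239), a smaller rise in KO, and the call held in 8 of 12 such fits. For Clec12b it was 5.037 (SE 1.37, FDR 0.0344), and the call held in 4 of 12. The Clec12b value rests on 0 counts in untreated KO libraries, against 13 in WT, and depends on the prior count of the fit.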

How the results depend on the processing

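Of the 230 calls on members, 225 were kept with DESeq2 size factors, 223 with no filter on low counts and 212 with scaling to total counts (14 lost, 4 reversed). DESeq2 kept 217 of 227, a filter of 5 CPM in 3 libraries 191 of 192, and fits of only the groups compared 206 of 227. Leaving out KO library 2 of Jurkat cells at 4 h, KO library 1 of Jurkat cells at 30 min and the shallowest, KO library 3 of OVA at 30 min, chosen after seeing the data, kept 104 of 122. Counts of members called stayed within 1.5 times for 137 of 145 results under the alternatives that kept all libraries and 136 of 150 omissions of a library. The exceptions, with all libraries kept or without those 3, were 5 for the interaction at 4 h of Jurkat cells with total counts (3 reported), 1 for that at 4 h of OVA with DESeq2 (0), and, with only the compared groups, 4 for Jurkat cells at 30 min in KO (7), 6 for KO against WT at 30 min of Jurkat cells (10) and 18 at 4 h of OVA (11). For OVA at 30 min in KO (1) it was 2 with the stricter filter, 3 with DESeq2, 2 without the 3 libraries and 2 with the replicate block within genotype. With a library left out, counts ranged from 0 to 1 for the interactions of Jurkat cells at 30 min and OVA at 4 h, 1 to 4 for that of Jurkat cells at 4 h, 3 to 6 for Jurkat cells at 30 min in KO, 7 to 16 for Jurkat cells against OVA at 30 min, 3 to 9 and 7 to 10 for KO against WT at 30 min and 4 h of OVA, and 1 to 2 in KO and 4 to 7 in WT for OVA at 30 min.

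Scaled to total counts, these log2 fold changes, called under at least 1 of the scalings, reversed at 4 h of Jurkat cells: Clec12a -0.33, Clec16a -0.35, Clec4a3 -0.40 and Clec7a -0.032 in WT, and Clec4a3 -0.20, Clec7a -0.33 and Clec9a -0.015 in KO. Against OVA they reversed for Clec16a (-0.32), Clec4b1 (-0.31), Clec4n (-0.20) and Siglece (-0.36). In KO at 4 h of Jurkat cells Clec4b2 (-0.28) and Clec2f (-0.18) also turned negative, called under neither scaling. The cause was not tested.

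The replicate numbers of the labels did not meet the rule for pairing, a correlation over 0.1 in every pair: deviations of same-numbered libraries of a genotype correlated at -0.0703 to 0.217 (median 0.0148), with 6 of 60 pairs over 0.1, against 2 of 120 pairs with other numbers. Of 30 libraries, 18 correlated best with their own number, a hint from the data and not from the design. The replicate block across genotypes kept 229 of 230 calls, giving 9 members for KO against WT untreated (7 without it), and that within genotype kept 133 of 133. Members under about 1 CPM, such as Cd207 and Clec12b, are limited by depth.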
